A study of Homo sapiens with 6 samples.

Results

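The genes described here are 43 components and outputs of the NF-kB pathway: transcription factor subunits, their inhibitors and kinases, adaptor proteins, and the chemokine, cytokine and other genes that the pathway is known to switch on. They were chosen by symbol among the 27980 symbols of the deposited count tables, and all 43 were found. The libraries came from RKO, a poorly differentiated human colon carcinoma cell line. Cells of 3 libraries had a stably integrated lentiviral hairpin against TRIP6 (shTRIP6), and those of the other 3 a scrambled one (shControl). Both groups had been kept in puromycin at 5 µg/ml, begun 36 h after infection and continued for 2 to 3 weeks. The labels name the hairpin against TRIP6 without a sequence or a number of hairpins, and name the controls WT by genotype. The sources used here do not give whether a group was a pool or a clone.

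NF-kB is a family of dimeric transcription factors that wait in the cytoplasm bound to IkB proteins. In the canonical branch, receptors for TNF, IL-1 or bacterial products act through TRAF and RIPK adaptors on the IkB kinases, which mark IkB for destruction and release dimers of RELA and the product of NFKB1. In the non-canonical branch, CHUK drives processing of the NFKB2 precursor, which pairs with RELB. Several targets, among them NFKBIA, TNFAIP3 and BIRC3, encode feedback regulators, and others encode chemokines and cytokines that draw and activate leukocytes. In epithelial tumours the pathway is known for survival and inflammatory signals. TRIP6, an adaptor of the zyxin family, has been described as a binding partner of RIPK2 and of TRAF2.

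Libraries held 29605764 to 32089298 counts. Each count equalled 0.0314 to 0.0336 CPM, the count scaled to library size with TMM factors. Means are given ± SD over the 3 libraries of a group, and fold changes ± SE. A count of 0 in a library allowed a level of up to 0.0941 to 0.101 CPM, the floor of 3 counts, which covers counting error only. No 2 replicate libraries agreed within sampling noise. The labels call them biological, with no word on separate cultures. The p-values therefore measure only the spread between these libraries, which may be technical. TRIP6 itself stood at 19.5 ± 0.203 CPM with the TRIP6 hairpin and 80.3 ± 6.27 CPM in controls (edgeR log2 fold change -2.04 ± 0.07, adjusted p = 1.25e-14), with every shTRIP6 library below every shControl library. Of 15473 tested genes 60.1% were called at an edgeR adjusted p under 0.05, 29.0% as higher and 31.2% as lower. Differences between stocks of cells cannot be told apart from those between hairpins.

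Markers of colon epithelium summed to 2533 to 2731 against 2516 to 2803 CPM. Among them KRT8 stood at 1719.5 ± 72.9 CPM with the TRIP6 hairpin and 1804 ± 99.5 CPM in controls, while EPCAM, KRT20 and VIL1 had no count in any library and CDX2 stood at 0.085 CPM in shTRIP6 and 0 in shControl. Of these 10 markers 3 were tested, of which 1 rose and 0 fell, and the keratin gene KRT19 was the riser, at 50.7 ± 3.15 CPM with the TRIP6 hairpin and 13.8 ± 2.27 CPM in controls (edgeR log2 fold change 1.87 ± 0.10, adjusted p = 7.84e-12). Of 16 leukocyte markers 5 were tested, of which 2 rose and 0 fell. Their summed level was 237 to 248 CPM in shTRIP6 and 189 to 237 CPM in shControl, nearly all of it CD68 (239 ± 4.68 CPM with the TRIP6 hairpin and 208 ± 24.9 CPM in controls), a lysosomal protein gene that many cell types express. The 2 risers were CD68 and CD14. CD14 stood at 2.22 ± 0.54 CPM with the TRIP6 hairpin and 0.52 ± 0.189 CPM in controls (edgeR log2 fold change 2.08 ± 0.37, adjusted p = 7.40e-05). The defining markers PTPRC, CD3E and MS4A1 stood at 0 in shTRIP6 and at 0.0974, 0.0428 and 0 CPM in shControl. Of 11 fibroblast markers 10 were tested, of which 2 rose and 6 fell, with a summed level of 160.3 to 181 against 124 to 141 CPM, most of it THY1 (153 ± 10.5 CPM with the TRIP6 hairpin and 89.3 ± 5.03 CPM in controls). All 6 falls were at least 2-fold, and the median log2 fold change of the tested fibroblast markers was -2.09. FAP fell to 0.328 ± 0.0763 against 15 ± 1.33 CPM (edgeR log2 fold change -5.49 ± 0.21, adjusted p = 3.94e-14). PDGFRB, the other riser beside THY1, stood at 13.9 ± 1.18 against 6.89 ± 1.23 CPM. DCN was at 0 in shTRIP6 and at 1.04 CPM in shControl. The 8 endothelial markers summed to 3.97 to 4.57 against 3.06 to 3.37 CPM, most of it ESAM in shTRIP6, at 3.83 CPM, and PECAM1 in shControl, at 1.65 CPM, with 1 of 2 tested higher and 1 lower. Called were 33.3%, 40%, 80% and 100% of the tested genes of these lists, in the order given, beside 60.1% of all tested genes. The part of these markers in the results below was not tested. In bulk RNA, fewer cells that express a gene and less RNA per cell cannot be told apart.

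The question for these genes was how their messages differ where TRIP6 is depleted. The pathway did not move one way. Of the 43 members 37 had enough counts to be tested, of which 12 rose, 17 fell and 8 did not pass the threshold. That is 78.4% called, beside 60.1% of all tested genes. The median log2 fold change was -0.15 over the tested members and -0.00397 over all tested genes, and the median size of change was 0.49 against 0.33. At least 2-fold calls numbered 2 rises (IL11 and NFKBIZ) and 5 falls (TNFAIP2, CSF1, IL1B, TNFAIP3 and TRAF1), where 4.38% of all tested genes rose and 10.5% fell that far. Of the 29 calls 13 were smaller than 1.5-fold. The groups did not overlap in 29 members, beside 65.3% of all tested genes. All 4 tested chemokine members and the 3 IL-6 family cytokines rose, while the 3 IL-1 family cytokines, CSF1 and 5 of the 6 tested cell-intrinsic outputs fell. Of all tested genes 29.0% were called higher and 31.2% lower. Among these members CXCL2, CXCL3, IL6 and IRF1 lost their call in some alternatives. The 9 tested cytokines as a whole held 3 rises and 4 falls, and their split by family was not part of the fixed lists. The subunits, the inhibitors and the kinases each held both rises and falls. None of these calls changed direction under RLE, upper-quartile or no scaling.

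**Figure D1:**
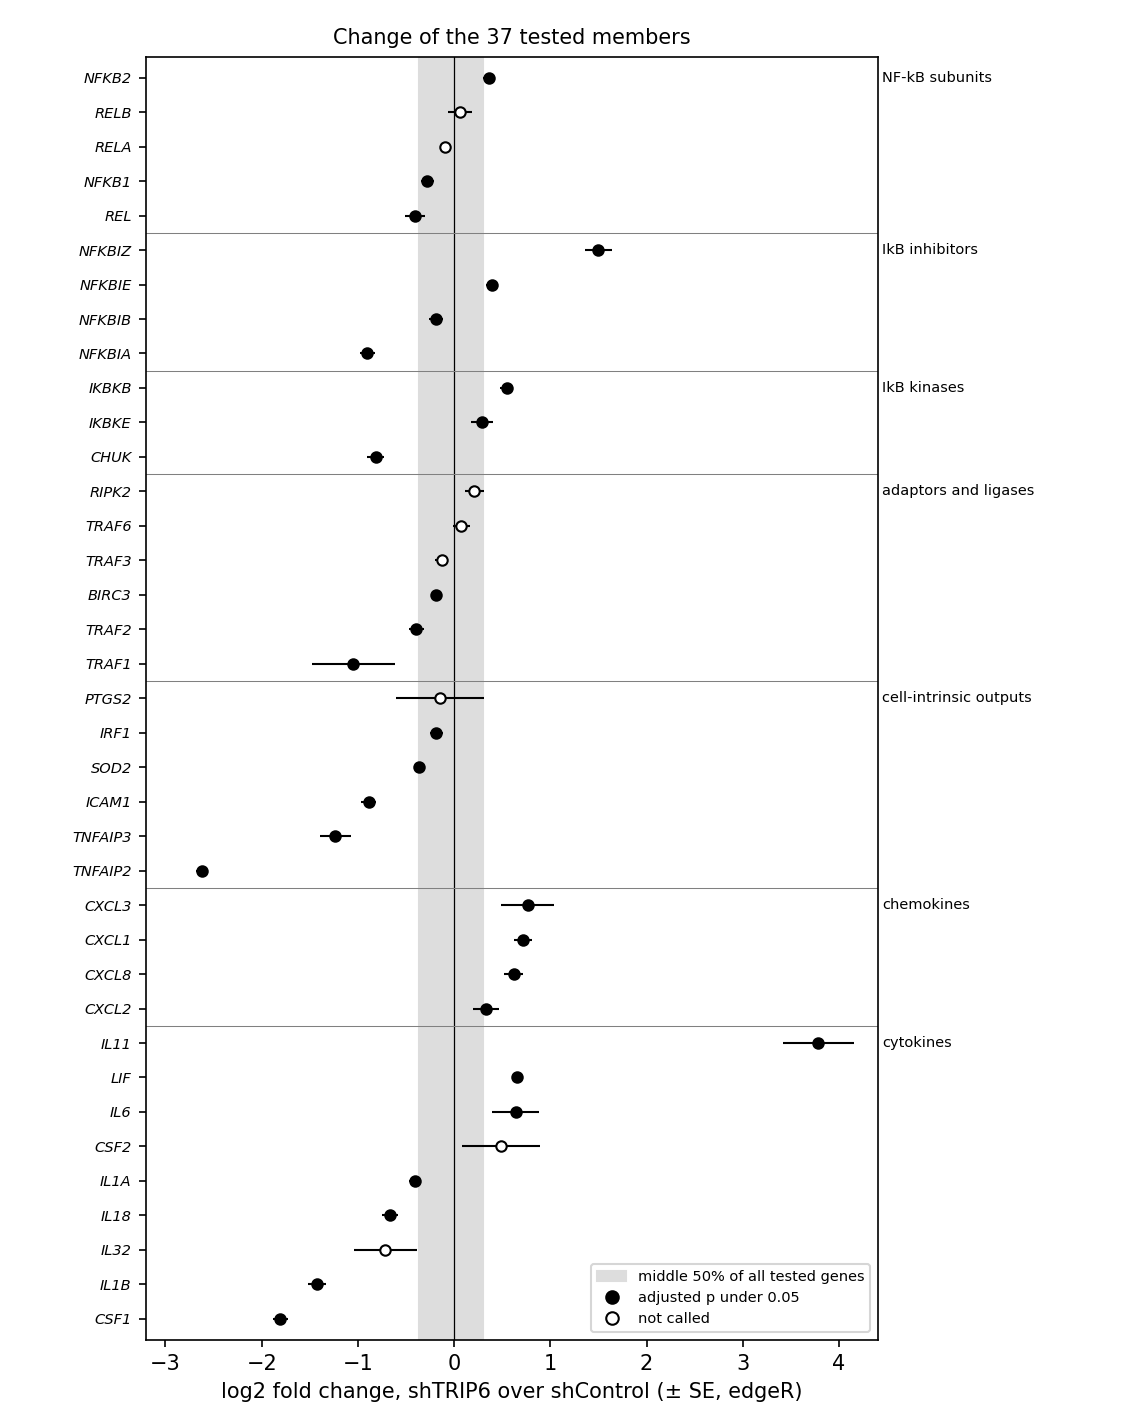
Log2 fold change of the 37 tested members, shTRIP6 over shControl, as points with SE from edgeR, grouped by role, with filled points for an adjusted p under 0.05 and a grey band for the middle 50% of all tested genes (-0.37 to 0.30). Chemokine points lie to the right of 0 and all cell-intrinsic outputs to the left, from IL11 at 3.78 down to TNFAIP2 at -2.62.

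The subunit genes changed by small amounts and in both directions. NFKB2 stood at 79.3, 77.4 and 76.5 CPM in the 3 shTRIP6 libraries and at 62.4, 57.2 and 62 CPM in the 3 shControl libraries, so NFKB2, the precursor gene of the non-canonical branch, rose 1.28-fold (edgeR log2 fold change 0.36 ± 0.06, adjusted p = 2.43e-05). NFKB1 stood at 39.6, 37 and 39.3 CPM in the 3 shTRIP6 libraries and at 47.5, 46.6 and 46.2 CPM in the 3 shControl libraries, so NFKB1, the precursor gene of the canonical branch, fell to 82.5% of its control level (edgeR log2 fold change -0.28 ± 0.06, adjusted p = 0.00107). REL, the subunit best known from lymphocytes, stood at 12.1, 12.3 and 13.2 CPM against 17.2, 17.2 and 15.3 CPM and fell to 75.5% (edgeR log2 fold change -0.41 ± 0.10, adjusted p = 0.00193). In each of these 3 genes the groups did not overlap. RELA, the transactivating partner of the canonical dimer, stood at 85.4 ± 4.56 CPM with the TRIP6 hairpin and 91 ± 2.75 CPM in controls (edgeR log2 fold change -0.09 ± 0.06, adjusted p = 0.16), and RELB, the partner of processed NFKB2, stood at 10.7 ± 0.388 CPM with the TRIP6 hairpin and 10.3 ± 1.46 CPM in controls (edgeR log2 fold change 0.06 ± 0.13, adjusted p = 0.706). The groups overlapped in both, and neither passed the threshold. Of the 50-base stretches of annotated REL transcripts 43.1% also occur in transcripts of other genes, so counts of REL depend on how shared reads were assigned.

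Per kilobase of annotated exon, a scale used here to compare different genes, RELA and NFKB2 were the most abundant subunit messages in both groups. The length was the union of exons over all annotated transcripts of a gene. Ranks, shares and ratios between genes therefore depend on the annotation. Summed over the 5 subunits the level was 42.8 to 45.1 CPM per kb in shTRIP6 and 41.9 to 42.9 in shControl, and these ranges overlapped. Within that sum NFKB2 made up 39.8 ± 0.533% in shTRIP6 against 31.9 ± 1.32% in shControl (SD, n = 3), and RELA made up 35.8 ± 0.825% against 39.4 ± 0.715%. NFKB1 made up 14.2 ± 0.443% against 17.7 ± 0.104%. The ranges of the groups did not overlap for any of these 3 shares. The ratio of NFKB2 to NFKB1 per length was 2.72 to 2.92 in shTRIP6 and 1.71 to 1.87 in shControl. For such ratios and shares an exact permutation test of 3 libraries against 3 cannot go below p = 0.10, so they are given as values.

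Among the inhibitors, the main feedback gene fell and the nuclear member of the family rose. NFKBIA stood at 24.6, 20.9 and 25.1 CPM in the 3 shTRIP6 libraries and at 45.6, 43.1 and 43.3 CPM in the 3 shControl libraries. The groups did not overlap, and NFKBIA, which encodes IkB-alpha and is itself an NF-kB target, was at 53.5% of its control level (edgeR log2 fold change -0.90 ± 0.08, adjusted p = 1.30e-08). It lies at chr14:35401511-35404749 on the minus strand (GRCh38). NFKBIZ stood at 13.7, 12.1 and 12.1 CPM in the 3 shTRIP6 libraries and at 3.93, 4.53 and 4.95 CPM in the 3 shControl libraries. NFKBIZ encodes IkB-zeta, a nuclear cofactor that is needed at some NF-kB promoters, and it rose 2.83-fold with no overlap of the groups (edgeR log2 fold change 1.50 ± 0.14, adjusted p = 2.38e-08). NFKBIE, the IkB-epsilon gene, stood at 53.3, 56.6 and 57.8 CPM in shTRIP6 and at 39.8, 42.6 and 45.1 CPM in shControl and rose as well (edgeR log2 fold change 0.39 ± 0.07, adjusted p = 4.43e-05). NFKBIB, the IkB-beta gene, was lower by less, at 34.6 ± 2.29 CPM with the TRIP6 hairpin and 39.6 ± 1.71 CPM in controls (edgeR log2 fold change -0.19 ± 0.07, adjusted p = 0.029). NFKBIB no longer passed under upper-quartile scaling (adjusted p = 0.0936), without shTRIP6 replicate 1 (0.0657), without shTRIP6 replicate 3 (0.177) or without shControl replicate 3 (0.107), and its adjusted p ran from 0.0124 to 0.177 across alternatives. Exons of NFKBIB overlap those of SIRT2 in the annotation.

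The summed level of the 4 inhibitor messages per kilobase was 48.5 to 48.8 in shTRIP6 and 51.9 to 54.4 in shControl, a small difference, while their mixture differed more. NFKBIA made up 20.4 ± 1.92% of it in shTRIP6 and 35.2 ± 1.78% in shControl. NFKBIE made up 44.5 ± 1.75% in shTRIP6 and 31.2 ± 1.27% in shControl. The most abundant inhibitor message per length was NFKBIE in every shTRIP6 library and NFKBIA in every shControl library. In shControl replicate 3 the margin was small, with NFKBIA at 33.5%, NFKBIB at 32.8% and NFKBIE at 32.1%. That order rests on the annotated exon lengths, since in CPM NFKBIE (45.1) stood above NFKBIA (43.3) in this library. The ratio of NFKBIA to RELA was 0.582 to 0.699 in shTRIP6 and 1.1 to 1.12 in shControl.

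**Figure D2:**
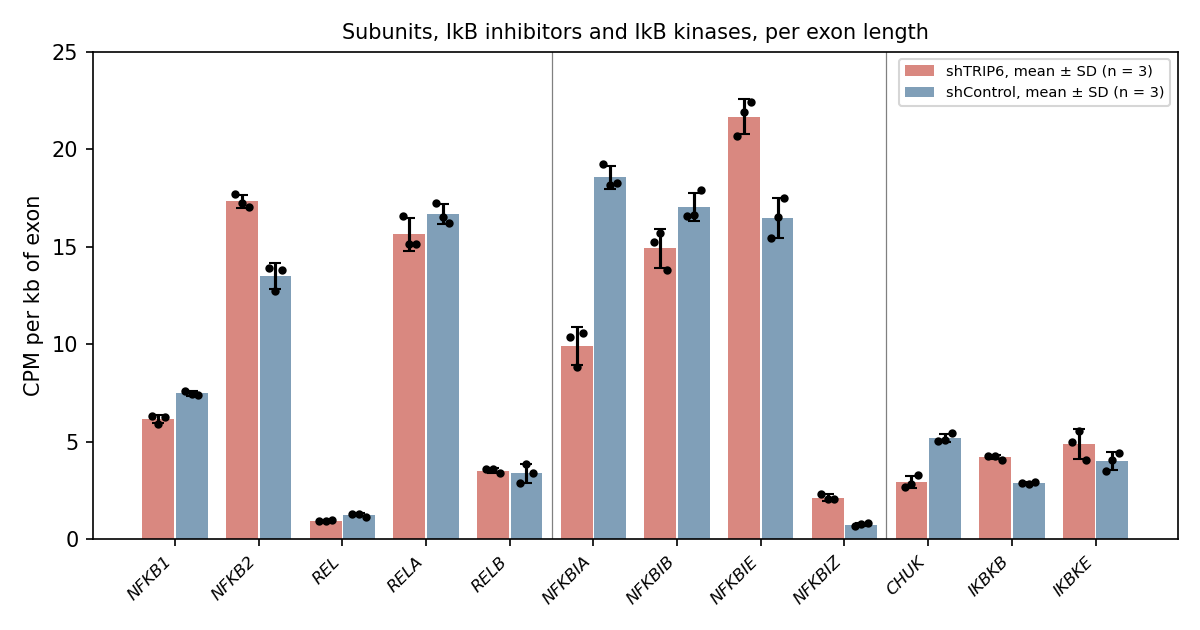
Level of the 5 subunits, 4 inhibitors and 3 IkB kinases in CPM per kb of annotated exon, as bars for the mean, error bars for the SD (n = 3) and points for single libraries. NFKBIA falls from 18.6 ± 0.58 to 9.92 ± 0.963 and NFKBIE rises from 16.5 ± 1.03 to 21.7 ± 0.894, from shControl to shTRIP6.

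The IkB kinase genes moved in opposite directions. CHUK stood at 18.7, 19.6 and 23 CPM in the 3 shTRIP6 libraries and at 34.9, 35.3 and 37.8 CPM in the 3 shControl libraries. CHUK encodes IKK-alpha, the kinase of the non-canonical branch, and was at 56.8% of its control level, with no overlap (edgeR log2 fold change -0.82 ± 0.09, adjusted p = 1.50e-07). IKBKB stood at 48.2, 48.2 and 45.9 CPM in the 3 shTRIP6 libraries and at 32.7, 31.8 and 33 CPM in the 3 shControl libraries. IKBKB encodes IKK-beta, the main kinase of the canonical branch, and rose 1.46-fold, also with no overlap (edgeR log2 fold change 0.54 ± 0.07, adjusted p = 8.75e-07). The ratio of IKBKB to CHUK per length was 1.23 to 1.58 in shTRIP6 and 0.538 to 0.578 in shControl, so the order of the pair was turned in every library. The sum of the 3 kinase messages was 12.1 ± 0.611 against 12.1 ± 0.682 CPM per kb, with overlapping groups. Exons of CHUK overlap those of ERLIN1. IKBKE, a related kinase best known from interferon induction, stood at 18.9, 21.1 and 15.5 CPM against 13.3, 15.4 and 16.8 CPM, and its groups overlapped although it was called higher (edgeR log2 fold change 0.29 ± 0.12, adjusted p = 0.0408). IKBKE no longer passed without shTRIP6 replicate 1 (adjusted p = 0.0969), without shTRIP6 replicate 2 (0.226), without shControl replicate 1 (0.11) or without shControl replicate 2 (0.0674), and its adjusted p ran from 0.00747 to 0.226 across alternatives.

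The adaptor genes, which include those whose proteins TRIP6 has been described to bind, held 3 falls and no rise among 6, from TRAF1 at 48.2% of its control level to BIRC3 at 87.8%. That is 50% called, beside 60.1% of all tested genes. RIPK2, the kinase adaptor of NOD receptors, stood at 22.6, 24.3 and 25 CPM in shTRIP6 and at 23.4, 21.3 and 17.5 CPM in shControl (edgeR log2 fold change 0.21 ± 0.10, adjusted p = 0.0765), with overlapping groups. RIPK2 passed the threshold under upper-quartile scaling (adjusted p = 0.0327) or without shControl replicate 1 (0.00565), and its adjusted p ran from 0.00565 to 0.374 across alternatives. TRAF2, the ligase and adaptor of TNF receptors, stood at 45.8, 41.4 and 40.2 CPM against 48.7, 60.5 and 58.2 CPM and fell to 76.1%, without overlap (edgeR log2 fold change -0.39 ± 0.08, adjusted p = 0.000282). TRAF6, the ligase that serves IL-1 and Toll-like receptors, stood at 23.8 ± 1.21 CPM with the TRIP6 hairpin and 22.6 ± 2.28 CPM in controls (edgeR log2 fold change 0.07 ± 0.09, adjusted p = 0.493). TRAF3, which restrains the non-canonical branch, stood at 52.9 ± 2.29 CPM with the TRIP6 hairpin and 57.9 ± 3.87 CPM in controls (edgeR log2 fold change -0.13 ± 0.07, adjusted p = 0.0923), and the groups of both TRAF6 and TRAF3 overlapped. TRAF3 passed the threshold without shControl replicate 1 (adjusted p = 0.00853), and its adjusted p ran from 0.00853 to 0.347 across alternatives. BIRC3, the ubiquitin ligase cIAP2, was called lower by a small amount, at 69.2 ± 1.45 CPM with the TRIP6 hairpin and 78.8 ± 4.98 CPM in controls (edgeR log2 fold change -0.19 ± 0.06, adjusted p = 0.0101). BIRC3 no longer passed without shTRIP6 replicate 2 (adjusted p = 0.0599), and its adjusted p ran from 0.00428 to 0.0599 across alternatives. TRAF1, an adaptor that NF-kB induces, was scarce, with 47 counts over the shTRIP6 libraries and 95 over the shControl libraries (0.499 ± 0.177 CPM with the TRIP6 hairpin and 1.03 ± 0.293 CPM in controls, edgeR log2 fold change -1.05 ± 0.43, adjusted p = 0.042). TRAF1 no longer passed under upper-quartile scaling (adjusted p = 0.0507), with no low-count filter (0.0563), in DESeq2 (0.0563), without shTRIP6 replicate 1 (0.144), without shTRIP6 replicate 3 (0.15), without shControl replicate 1 (0.0784) or without shControl replicate 2 (0.157), and its adjusted p ran from 0.0251 to 0.157 across alternatives.

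The cell-intrinsic outputs were lower or did not pass, and TNFAIP2 had the largest fall of all tested members. TNFAIP2 stood at 33.5, 32.6 and 34.6 CPM in the 3 shTRIP6 libraries and at 192, 215 and 212 CPM in the 3 shControl libraries. TNFAIP2 encodes a TNF-inducible protein linked to membrane protrusions, and its level in shTRIP6 was 16.3% of that in shControl (edgeR log2 fold change -2.62 ± 0.06, adjusted p = 1.25e-17). It lies at chr14:103123442-103137439 on the plus strand (GRCh38), 212 kb from TRAF3, which did not pass. TNFAIP3 stood at 3.99, 4.19 and 3.86 CPM in the 3 shTRIP6 libraries and at 11.3, 8.54 and 8.51 CPM in the 3 shControl libraries, so TNFAIP3, which encodes the ubiquitin-editing inhibitor A20, fell to 42.5% (edgeR log2 fold change -1.23 ± 0.16, adjusted p = 1.88e-06). ICAM1 stood at 26.8, 25.7 and 24.1 CPM in the 3 shTRIP6 libraries and at 51.2, 44.4 and 46.5 CPM in the 3 shControl libraries, so the adhesion receptor gene ICAM1 fell to 54% (edgeR log2 fold change -0.89 ± 0.08, adjusted p = 8.70e-09). No shTRIP6 library reached the lowest shControl library in any of these 3 genes.

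The remaining outputs differed less. SOD2, the mitochondrial superoxide dismutase gene, stood at 81.8, 83 and 80.1 CPM against 101, 109.8 and 105 CPM (edgeR log2 fold change -0.37 ± 0.05, adjusted p = 7.02e-06). SOD2 has more than a single entry in the annotation, and exons of the entry used here overlap those of ACAT2, WTAP and SOD2-OT1. IRF1, a transcription factor gene shared with the interferon response, stood at 35.5 ± 1.15 CPM with the TRIP6 hairpin and 40.4 ± 1.11 CPM in controls (edgeR log2 fold change -0.19 ± 0.07, adjusted p = 0.0225). IRF1 no longer passed under upper-quartile scaling (adjusted p = 0.0825), without shTRIP6 replicate 1 (0.0518), without shTRIP6 replicate 2 (0.057), without shTRIP6 replicate 3 (0.11) or without shControl replicate 2 (0.0737), and its adjusted p ran from 0.0154 to 0.11 across alternatives. PTGS2, the inducible cyclooxygenase gene, was near 1 CPM or below in every library, at 0.561 ± 0.154 CPM with the TRIP6 hairpin and 0.625 ± 0.247 CPM in controls (edgeR log2 fold change -0.15 ± 0.45, adjusted p = 0.797). BCL2A1, a BCL2 family survival gene, was not tested, with 10 counts over the shTRIP6 libraries and 27 over the shControl libraries.

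Promoter sequences show which members share the site that NF-kB binds, here shown because members with the same kind of site both rose and fell. RefSeq windows of 250 bases before to 50 bases after the gene start (GRCh38.p14) were found for 35 of the 43 members. The kB consensus was written GGGRNNYYCC (R is A or G, Y is C or T, N is any base) and searched on both strands. It had a match in 16 of the 35 windows (45.7%), beside 10.8% of 27305 windows of all genes. The members were chosen as NF-kB genes, so this share is only a description. A match was present in 5 of 9 windows of members called higher and in 6 of 15 windows of members called lower. A match is a description of the letters and not a site shown to be bound. The letters GGAATTTCC on either strand, searched after the chemokine sequences had been seen and overlapping the kB consensus, were in 10 of the 35 member windows and in 0.472% of all windows. They were in 5 of 9 windows of members called higher and in 4 of 15 of members called lower. In the following stretches of 30 bases, each 5′ to 3′ on the strand of its gene, the capitals mark these letters. The first 4 genes rose, and CXCL5 had no count in any library.
CXCL1, chr4:73869305-73869334, plus strand: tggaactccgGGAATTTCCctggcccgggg
CXCL2, chr4:74099253-74099282, minus strand: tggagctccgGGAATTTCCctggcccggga
CXCL3, chr4:74038748-74038777, minus strand: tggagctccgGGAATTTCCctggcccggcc
CXCL8, chr4:73740468-73740497, plus strand: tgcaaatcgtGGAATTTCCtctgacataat
CXCL5, chr4:73998748-73998777, minus strand: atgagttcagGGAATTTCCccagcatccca

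The capitals begin 78 bases before the RefSeq start of CXCL1, 77 before that of CXCL2, 78 before that of CXCL3, 90 before that of CXCL5 and 91 before that of CXCL8. The same letters on the other strand, written GGAAATTCC on the strand of the gene, stand in the windows of NFKBIA, ICAM1 and REL, which fell, and NFKB1, which also fell, has the letters on its own strand. NFKBIZ, which rose, has them on its own strand as well, 222 bases before its start. For comparison, the 150 bases before the RefSeq start of CXCL1, which rose, of NFKBIA, which fell, and of TNFAIP2, which fell furthest, are given on the strand of each gene with kB consensus matches in capitals. The TNFAIP2 stretch holds no match, and its 300-base window holds none. This strict pattern also has no match in the windows of CXCL8 and ICAM1, which hold the letters GGAATTTCC on either strand. The lack of a match therefore does not show that a site is absent.
CXCL1, chr4:73869243-73869392, plus strand: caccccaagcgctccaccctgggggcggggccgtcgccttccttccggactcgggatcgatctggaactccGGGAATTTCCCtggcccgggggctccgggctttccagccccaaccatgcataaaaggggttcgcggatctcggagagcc
NFKBIA, chr14:35404750-35404899, minus strand: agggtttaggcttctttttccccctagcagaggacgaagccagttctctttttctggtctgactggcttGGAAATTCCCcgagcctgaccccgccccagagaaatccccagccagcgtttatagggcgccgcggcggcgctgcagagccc
TNFAIP2, chr14:103123311-103123460, plus strand: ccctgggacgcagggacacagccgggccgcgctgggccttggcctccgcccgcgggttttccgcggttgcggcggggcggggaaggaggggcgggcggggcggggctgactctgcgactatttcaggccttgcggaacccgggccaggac

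The 4 tested chemokine members, CXCL1, CXCL2, CXCL3 and CXCL8, all of which attract neutrophils, rose. CXCL1 stood at 52.6, 46.4 and 51.8 CPM in the 3 shTRIP6 libraries and at 36.4, 26.9 and 28.7 CPM in the 3 shControl libraries. CXCL1 rose 1.64-fold, with every shTRIP6 library above every shControl library (edgeR log2 fold change 0.71 ± 0.09, adjusted p = 2.33e-06). CXCL8 stood at 25.4, 25.3 and 22.4 CPM in the 3 shTRIP6 libraries and at 15.3, 17.7 and 14.7 CPM in the 3 shControl libraries. CXCL8, the interleukin-8 gene, rose 1.53-fold, also without overlap (edgeR log2 fold change 0.62 ± 0.10, adjusted p = 1.86e-05). CXCL2 stood at 8.54, 7.58 and 8.68 CPM against 6.65, 6.87 and 6.15 CPM (edgeR log2 fold change 0.33 ± 0.14, adjusted p = 0.0422). CXCL2 no longer passed with no scaling (adjusted p = 0.0511), with no low-count filter (0.0506), in DESeq2 (0.0555), without shTRIP6 replicate 1 (0.106), without shTRIP6 replicate 3 (0.108), without shControl replicate 2 (0.0512) or without shControl replicate 3 (0.11), and its adjusted p ran from 0.0215 to 0.11 across alternatives. CXCL3 stood at 1.82, 2.69 and 2.44 CPM against 1.34, 1.32 and 1.42 CPM (edgeR log2 fold change 0.76 ± 0.28, adjusted p = 0.023). CXCL3 no longer passed without shTRIP6 replicate 2 (adjusted p = 0.102), without shTRIP6 replicate 3 (0.0634) or without shControl replicate 2 (0.0528), and its adjusted p ran from 0.0161 to 0.102 across alternatives. The groups did not overlap in either gene.

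CXCL1 made up 69.2 ± 1.63% of the summed level per kilobase of these 4 genes in shTRIP6 and 66.2 ± 4.46% in shControl, with overlapping ranges. Their sum was 56.1 ± 2.6 CPM per kb against 35.6 ± 3.64 CPM per kb, so the level rose while the share of CXCL1 did not separate the groups. CXCL1, CXCL2 and CXCL3 are close paralogs. Of their 50-base stretches 4.81%, 12.5% and 6.01% occur in transcripts of another gene, so part of their counts could be split between them. CXCL5 had no count in the 6 libraries. CCL2, a monocyte attractant gene, had 0 counts in shTRIP6 and 2 in shControl, and CCL20, which attracts cells bearing CCR6, had 6 and 3, so no difference was detectable in these 3 genes at this depth. The chemokine genes tested outside the members were too few to set apart from the shares of all tested genes, 29.0% higher and 31.2% lower. In the list of further outputs 5 of 12 chemokine genes were tested, of which 0 rose and 3 fell. Besides CCL28, given below with its list, these were CCL3, a macrophage inflammatory protein gene, at 17.6 ± 1.62 CPM with the TRIP6 hairpin and 29.6 ± 3.27 CPM in controls (edgeR log2 fold change -0.75 ± 0.10, adjusted p = 2.09e-06), and CXCL16, a ligand of CXCR6, at 2.97 ± 0.218 CPM with the TRIP6 hairpin and 4.9 ± 0.713 CPM in controls (edgeR log2 fold change -0.72 ± 0.19, adjusted p = 0.00302), both named after their values had been seen. Exons of CXCL16 overlap those of MED11.

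The chemokine genes lie in a cluster on chromosome 4, from CXCL8 at chr4:73740506-73743716 on the plus strand to CXCL2 at chr4:74097035-74099293 on the minus strand (GRCh38). Of 11 other genes of the cluster and around it 6 were tested, of which 0 rose and 3 fell. That is 50% called, beside 60.1% of all tested genes. CXCL6 stood at 0.434 ± 0.175 CPM with the TRIP6 hairpin and 0.559 ± 0.245 CPM in controls (edgeR log2 fold change -0.36 ± 0.50, adjusted p = 0.557), and PF4, PF4V1 and PPBP had no count in any library. Beyond the cluster, the folate enzyme gene MTHFD2L (13.2 ± 1.89 CPM with the TRIP6 hairpin and 13 ± 1.1 CPM in controls) and the growth factor gene AREG (2.54 ± 1.23 CPM with the TRIP6 hairpin and 2.00 ± 0.62 CPM in controls) did not pass (edgeR adjusted p = 0.918 and 0.413). The growth factor genes EREG, BTC and EPGN fell, with log2 fold changes of -0.78, -1.56 and -3.81. EPGN was at -4.46 without shTRIP6 replicate 2.

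**Figure D3:**
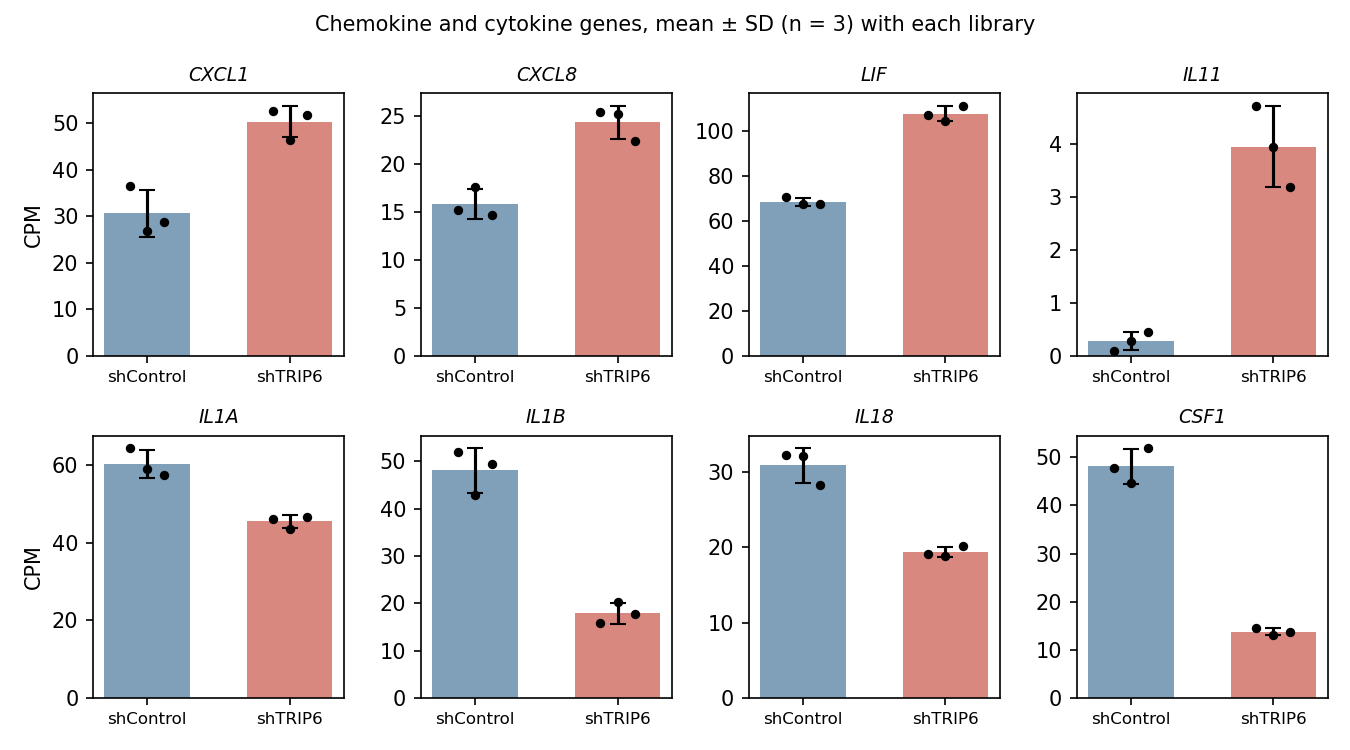
CPM of 8 chemokine and cytokine genes in shControl and shTRIP6, as bars for the mean, error bars for the SD (n = 3) and points for single libraries, each panel with its own axis from 0. The upper 4 genes (CXCL1, CXCL8, LIF, IL11) are higher and the lower 4 (IL1A, IL1B, IL18, CSF1) are lower in every shTRIP6 library than in any shControl library.

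The 3 IL-1 family cytokines among the members, which are made as precursors and promote inflammation, fell. IL1B stood at 15.8, 20.2 and 17.7 CPM in the 3 shTRIP6 libraries and at 52, 42.8 and 49.4 CPM in the 3 shControl libraries. IL1B was at 37.3% of its control level, and no shTRIP6 library came near the shControl range (edgeR log2 fold change -1.42 ± 0.09, adjusted p = 2.17e-10). IL1A stood at 46.2, 43.7 and 46.8 CPM in the 3 shTRIP6 libraries and at 64.5, 59.1 and 57.6 CPM in the 3 shControl libraries. IL1A, the form often kept in epithelial cells, was at 75.4% (edgeR log2 fold change -0.41 ± 0.06, adjusted p = 2.31e-05). IL18 stood at 19.1, 18.9 and 20.2 CPM in shTRIP6 and at 32.3, 32.1 and 28.2 CPM in shControl, 62.8% of the control level (edgeR log2 fold change -0.67 ± 0.08, adjusted p = 1.26e-06). The groups did not overlap in any of the 3. Per kilobase their sum was 34.6 ± 0.711 against 55.7 ± 3.24 CPM per kb, and the ratio of IL1A to IL1B was 3.15 to 4.27 in shTRIP6 against 1.7 to 2.01 in shControl. IL1A and IL1B are neighbours on chromosome 2, 45.2 kb apart.

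The 3 cytokines of the IL-6 family among the members, which signal through the shared receptor chain IL6ST, rose. LIF stood at 107, 104 and 111 CPM in the 3 shTRIP6 libraries and at 70.4, 67.4 and 67.4 CPM in the 3 shControl libraries. LIF, leukemia inhibitory factor, rose 1.57-fold without overlap of the groups (edgeR log2 fold change 0.65 ± 0.05, adjusted p = 4.14e-09), and its exons overlap those of LIF-AS1. IL11 stood at 4.71, 3.93 and 3.18 CPM in the 3 shTRIP6 libraries and at 0.101, 0.289 and 0.453 CPM in the 3 shControl libraries. IL11, a cytokine known from epithelial repair and stromal signalling, had the largest rise of all tested members, on 372 counts over the shTRIP6 libraries against 26 over the shControl libraries (edgeR log2 fold change 3.78 ± 0.37, adjusted p = 5.48e-08). IL6 stood at 3.67, 3.33 and 2.32 CPM against 1.71, 2.18 and 2.07 CPM (edgeR log2 fold change 0.64 ± 0.24, adjusted p = 0.0307), and its groups lay apart by little. IL6 no longer passed without shTRIP6 replicate 1 (adjusted p = 0.144), without shTRIP6 replicate 2 (0.0916) or without shControl replicate 1 (0.0714), and its adjusted p ran from 0.0113 to 0.144 across alternatives. Exons of IL6 overlap those of STEAP1B. LIF made up most of the summed level of the 3 genes per kilobase, at 90.1 ± 2.04% in shTRIP6 and 94.2 ± 1.02% in shControl, and the share of IL11 was 4.91 ± 0.926% against 0.578 ± 0.366%.

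Of the colony-stimulating factors CSF1 fell and CSF2 did not pass. CSF1 stood at 14.4, 13.1 and 13.8 CPM in the 3 shTRIP6 libraries and at 47.7, 44.8 and 51.9 CPM in the 3 shControl libraries. CSF1, the growth factor of macrophages, was at 28.6% of its control level with no overlap (edgeR log2 fold change -1.81 ± 0.08, adjusted p = 7.70e-13). CSF2, the granulocyte and macrophage factor gene, stood at 1.24 ± 0.398 CPM with the TRIP6 hairpin and 0.881 ± 0.416 CPM in controls and did not pass (edgeR log2 fold change 0.49 ± 0.41, adjusted p = 0.311). IL32, an inflammatory cytokine gene of lymphocytes and epithelia, stood at 1.07, 0.991 and 0.836 CPM against 1.18, 1.86 and 1.71 CPM, apart in all libraries but not called (edgeR log2 fold change -0.71 ± 0.33, adjusted p = 0.0678). IL32 passed the threshold with a filter of 1 CPM in 3 libraries (adjusted p = 0.0458) or without shControl replicate 1 (0.0308), and its adjusted p ran from 0.0308 to 0.206 across alternatives. TNF, the founding ligand of the pathway, and LTB, a ligand of the non-canonical branch, had no count in any of the 6 libraries.

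**Figure D4:**
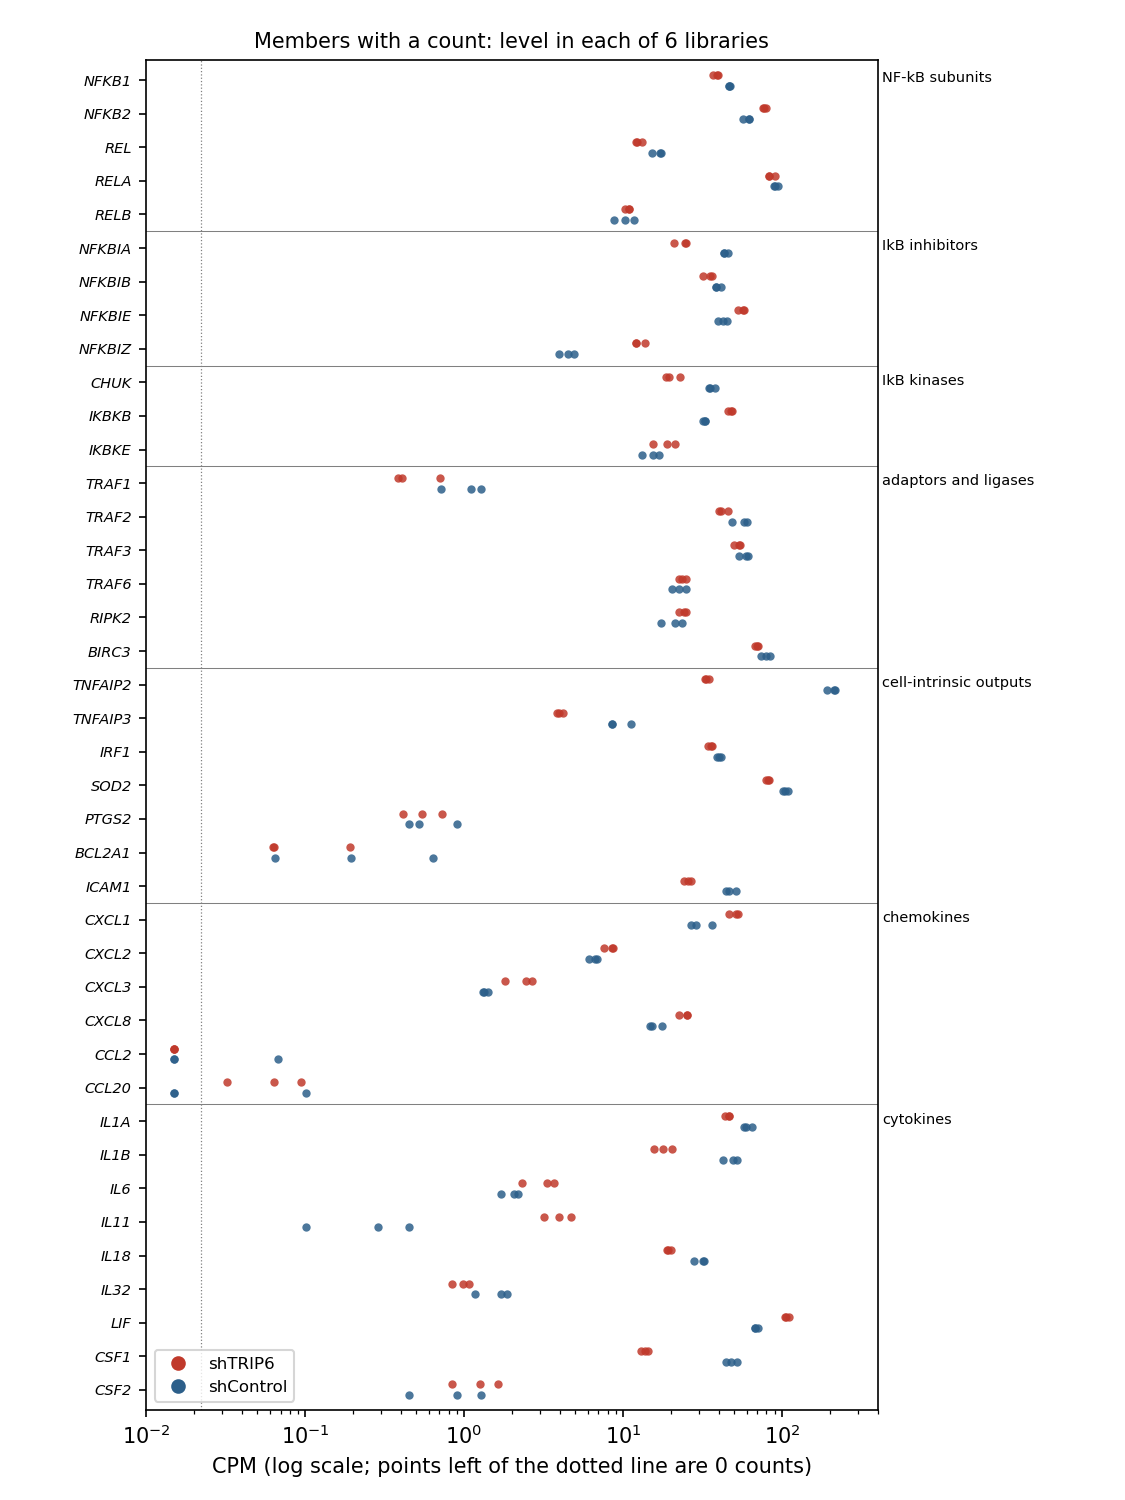
CPM on a log axis of the 40 members with a count, with 1 point for each of 3 shTRIP6 and 3 shControl libraries, grouped by role, and counts of 0 placed left of the dotted line. Levels range from TNFAIP2 at up to 215 CPM in shControl to CCL2 and CCL20 at or near 0.

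Genes that carry signals to and from these members were read in lists of other pathway genes. Of 19 receptors that activate NF-kB 14 were tested, of which 2 rose and 8 fell, with a median log2 fold change of -0.69. That is 71.4% called, beside 60.1% of all tested genes. TLR4, the receptor for lipopolysaccharide, stood at 0.126, 0.416 and 0.289 CPM in shTRIP6 and at 26.5, 29.9 and 31.6 CPM in shControl, under 1% of the control level (edgeR log2 fold change -6.71 ± 0.20, adjusted p = 8.99e-16). EDAR, the ectodysplasin receptor gene, and IL1RL1, the receptor gene of IL-33, had no count with the TRIP6 hairpin. Taking 3 counts in the whole group as the floor, EDAR was at least 95.4-fold lower (controls held 3.04 CPM) and IL1RL1 at least 65.5-fold lower (controls held 2.08 CPM). The receptors that rose were TNFRSF11A, which encodes RANK, at 17 ± 0.709 CPM with the TRIP6 hairpin and 6.13 ± 0.428 CPM in controls (edgeR log2 fold change 1.47 ± 0.11, adjusted p = 2.30e-09), and CD40, at 24.3 ± 1.36 CPM with the TRIP6 hairpin and 14.7 ± 1.16 CPM in controls (edgeR log2 fold change 0.72 ± 0.09, adjusted p = 1.99e-06). Exons of IL1RL1 overlap those of IL18R1.

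Of 37 upstream adaptors, kinases and ubiquitin ligases 34 were tested, of which 13 rose and 11 fell, with a median of 0.01. That is 70.6% called, beside 60.1% of all tested genes. The 3 largest falls among genes at a mean of 1 CPM or more were MAP3K8 (2.6 ± 0.483 CPM with the TRIP6 hairpin and 6.2 ± 1.44 CPM in controls, edgeR log2 fold change -1.25 ± 0.21, adjusted p = 4.39e-05), MYD88 (13.6 ± 2.31 CPM with the TRIP6 hairpin and 31.5 ± 3.13 CPM in controls, edgeR log2 fold change -1.21 ± 0.11, adjusted p = 2.47e-08) and IRAK2 (11.7 ± 0.753 CPM with the TRIP6 hairpin and 16.5 ± 2.11 CPM in controls, edgeR log2 fold change -0.49 ± 0.11, adjusted p = 0.000887). MYD88 and IRAK2 serve IL-1 and Toll-like receptors, and so do IRAK1, IRAK4 and TIRAP, named after their values had been seen. IRAK1 rose, at 757 ± 18.8 CPM with the TRIP6 hairpin and 511 ± 19.9 CPM in controls (edgeR log2 fold change 0.57 ± 0.04, adjusted p = 1.18e-09). IRAK4 and TIRAP did not pass (edgeR adjusted p = 0.89 and 0.706). TRADD, the adaptor of TNF receptor 1, and TRAF5 rose, with log2 fold changes of 0.81 and 0.60. Exons of TRADD overlap those of FBXL8.

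Of 19 further IkB-like proteins and negative regulators 17 were tested, of which 6 rose and 6 fell, with a median of 0.05. That is 70.6% called, beside 60.1% of all tested genes. BCL3, a nuclear IkB-like protein gene, stood at 6.28, 5.98 and 7.17 CPM in shTRIP6 and at 27.6, 26.7 and 27.8 CPM in shControl (edgeR log2 fold change -2.08 ± 0.10, adjusted p = 2.23e-12). It moved opposite to NFKBIZ, which encodes another nuclear IkB-like protein. ZC3H12A, a nuclease that degrades cytokine messages, fell to 4.69 ± 0.459 against 9.66 ± 1.68 CPM (edgeR log2 fold change -1.04 ± 0.16, adjusted p = 1.46e-05), and OTULIN, which trims linear ubiquitin, fell by 0.63 on the log2 scale. PDLIM2, a ligase that targets nuclear RELA, rose to 62.1 ± 1.63 against 30.5 ± 2.91 CPM (edgeR log2 fold change 1.02 ± 0.07, adjusted p = 5.66e-10), and TNIP2 and TANK rose by 0.55 and 0.44 on the log2 scale. Exons of BCL3 and of ZC3H12A overlap those of microRNA genes.

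Of 34 further outputs 21 were tested, of which 8 rose and 6 fell, with a median of 0.10. That is 66.7% called, beside 60.1% of all tested genes. Among genes at a mean of 1 CPM or more, the rises were led by CSF3, the granulocyte colony-stimulating factor gene (2.51 ± 0.471 CPM with the TRIP6 hairpin and 0.964 ± 0.482 CPM in controls, edgeR log2 fold change 1.37 ± 0.34, adjusted p = 0.00191), IL12A (2.42 ± 0.343 CPM with the TRIP6 hairpin and 0.99 ± 0.0878 CPM in controls, edgeR log2 fold change 1.29 ± 0.29, adjusted p = 0.00077) and the stress response gene IER3 (319 ± 13.4 CPM with the TRIP6 hairpin and 182 ± 3.94 CPM in controls, edgeR log2 fold change 0.81 ± 0.05, adjusted p = 2.43e-11). The falls were led by EFNA1, an ephrin ligand gene (1.82 ± 0.339 CPM with the TRIP6 hairpin and 23.6 ± 1.89 CPM in controls, edgeR log2 fold change -3.70 ± 0.14, adjusted p = 5.50e-14), the lymphocyte growth factor gene IL15 (0.254 ± 0.0807 CPM with the TRIP6 hairpin and 2.77 ± 0.621 CPM in controls, edgeR log2 fold change -3.42 ± 0.38, adjusted p = 2.80e-07) and the mucosal chemokine gene CCL28 (0.511 ± 0.412 CPM with the TRIP6 hairpin and 2.76 ± 0.215 CPM in controls, edgeR log2 fold change -2.43 ± 0.41, adjusted p = 4.96e-05). CCL28 had 13, 5 and 30 counts in the shTRIP6 libraries, and its log2 fold change was -3.25 without shTRIP6 replicate 3. Exons of IL12A overlap those of IL12A-AS1 and exons of IER3 those of IER3-AS1.

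Of 24 genes listed as receptors and decoys for the members' products or for related ligands 12 were tested, of which 6 rose and 4 fell. That is 83.3% called, beside 60.1% of all tested genes. For the IL-6 family, IL11RA, the IL-11 receptor gene, stood at 5.01 ± 0.292 CPM with the TRIP6 hairpin and 2.73 ± 0.49 CPM in controls (edgeR log2 fold change 0.88 ± 0.20, adjusted p = 0.000746), and its exons overlap those of GALT and CCL27. OSMR, a receptor of the same family, fell to 104 ± 3.62 against 214 ± 5.76 CPM (edgeR log2 fold change -1.04 ± 0.05, adjusted p = 1.09e-12). The receptor genes LIFR, for LIF, and IL6R, for IL6, were named after their values had been seen. LIFR fell to 10.8 ± 0.544 against 19 ± 0.823 CPM (edgeR log2 fold change -0.82 ± 0.10, adjusted p = 9.35e-07), and its exons overlap those of LIFR-AS1. IL6R rose to 20.1 ± 1.66 against 11 ± 1.04 CPM (edgeR log2 fold change 0.87 ± 0.11, adjusted p = 1.00e-06). The receptors CXCR1 and CXCR2, through which CXCL1 and CXCL8 act, had 0 counts or a single count in all libraries together. ACKR3, an atypical chemokine receptor, was at 0.105 ± 0.0961 CPM with the TRIP6 hairpin and 13 ± 1.15 CPM in controls (edgeR log2 fold change -6.88 ± 0.31, adjusted p = 7.28e-13). ACKR3 had 6, 4 and 0 counts in the shTRIP6 libraries, and its log2 fold change was -7.56 without shTRIP6 replicate 1. IL18BP, the decoy of IL-18, fell to 2.32 ± 0.201 against 5.36 ± 0.877 CPM (edgeR log2 fold change -1.20 ± 0.20, adjusted p = 4.04e-05). CSF2RA and the leukocyte integrin gene ITGB2 rose by 0.99 and 1.03 on the log2 scale. CSF1R, the receptor of CSF1, was below 1 CPM in both groups and did not pass (edgeR adjusted p = 0.0726), though it did without shControl replicate 2 (0.0261).

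**Figure D5:**
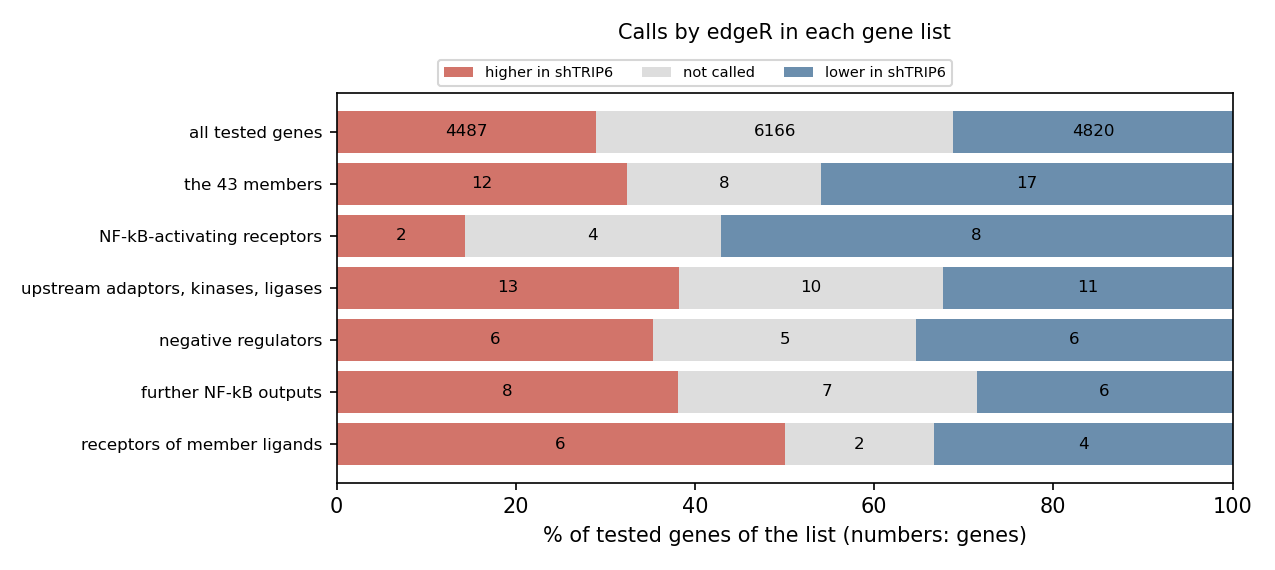
Share of tested genes called higher, not called and called lower in shTRIP6 by edgeR, in percent on the horizontal axis, for all tested genes, the 43 members and 5 lists of other pathway genes, with numbers of genes in the bars. Receptors that activate NF-kB are lower in 8 of 14 tested genes. Genes listed as receptors and decoys for the members' products or related ligands are higher in 6 of 12.

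The nearest tested protein-coding genes of the 7 members called past 2-fold were looked up after the members' values had been seen. TNFAIP2 lies between EXOC3L4 (log2 fold change 0.38, edgeR adjusted p = 0.546) and EIF5 (-0.21, adjusted p = 0.000375). CSF1 lies between GSTM3 (-0.65) and AHCYL1 (-0.03). IL11 rose between KMT5C (-0.25) and TMEM238 (-2.29). IL1B lies between IL1A and PSD4 (-1.72), and TRAF1 between PHF19 (-0.02) and C5 (-1.13). TNFAIP3 lies between IFNGR1 (-0.86), 648 kb before it, and PERP (-0.94), 205 kb after it, both lower as TNFAIP3 was. Of all tested genes 31.2% were lower and 29.0% higher. NFKBIZ has NXPE3 (0.63), also higher, 0.599 kb before it, and ALCAM (-0.09) 3506 kb after it.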

How the data were processed

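RNA of 3 shTRIP6 and 3 shControl libraries of RKO cells was sequenced. The authors deposited raw read counts per gene symbol, with no normalization. Per the submitters' processing notes, TopHat2, edgeR, limma and the build hg38 were used, in roles not stated. The sources used here do not give how reads were counted (tool, annotation, strand). Groups came from the labels. The main comparison was the quasi-likelihood test of edgeR 4.0.16 (R 4.3.3) with TMM factors, the filterByExpr filter and group as the only term, with Benjamini-Hochberg adjustment over all tested genes and a threshold of 0.05. The SE is the log2 fold change over the square root of F. The test was checked on simulated data in which far fewer genes changed than the 60.1% called here. That check does not cover so broad a change. The members and lists were chosen with earlier results of these data known. All members were named, and of each other list up to 3 called rises and 3 called falls with a mean of 1 CPM or more, of which 1 gene is not reported here. Exon lengths, overlaps and positions came from GENCODE 29 (GRCh38), in which 25770 of 27980 symbols matched by name and 34 by synonym, and this may differ from the annotation used for counting. FAM105B was found as OTULIN. Alternatives were other scaling (RLE, upper-quartile or none), other filters (none, or 1 CPM in 3 libraries), DESeq2 1.42.0, limma-voom (limma 3.58.1), a replicate block, leaving out each library, and genes without overlapping exons.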

Additional observations from a re-analysis of the deposited data

How the results depend on the processing

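Over the 15 alternatives 21 of the 29 called members kept their call in each that tested them, and the other 8 (NFKBIB, IKBKE, TRAF1, BIRC3, IRF1, CXCL2, CXCL3 and IL6) lost it in at least 1. Of the 8 members not called, 3 (TRAF3, RIPK2 and IL32) passed in some. No called member changed direction. The number of members called higher was 9 to 13 and of those called lower 13 to 18. With only genes without overlapping exons, 9507 genes were tested in place of 15473, and 2888 were higher and 3147 lower. On the same genes, 23 of the other pathway genes were higher in place of 35, with 66 tested in place of 103. TRIP6 has exons overlapping MIR6875 and was not in that fit. In the others it ranged from -2.10 to -1.98 on the log2 scale.

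The replicate numbers of the labels did not pair the libraries. Correlations of same-numbered deviations were -0.00223, 0.010 and -0.0695, and not every library correlated best with its own number. With the replicate block 11 members were higher and 16 lower, 4377 of all genes were higher and 4702 lower, and CXCL2 (adjusted p = 0.0594) and TRAF1 (0.0638) did not pass. Under the block 34 of the other pathway genes were higher and 38 lower, and TRIP6 was at -2.04. Depth limits BCL2A1, CCL2, CCL20, CXCL5, TNF and LTB, which were not tested.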
